A study of Mus musculus with 6 samples.

Results

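Astrocytes are the star-shaped glial cells that fill most of the space around neurons, and this account follows 10 of their genes in whole mouse brain. The genes were chosen by symbol: the intermediate filaments Gfap and Vim, the enzymes Aldh1l1, Aldoc and Glul, the water channel Aqp4, the gap junction protein Gja1, the calcium-binding protein S100b, and Serpina3n and Cd44, which are known to rise in reactive astrocytes. All 10 of the 10 were found on the Affymetrix Mouse Gene 2.0 ST array among 22180 genes that have a probeset with exactly 1 gene symbol, each gene being read by its brightest such probeset. RNA from total brain was measured on 6 arrays. In the HuR KO group (3 arrays, genotype Thy1Cre-ERT2-EYFPHuRf/f) both alleles of Elavl1, the gene of the RNA-binding protein HuR, were floxed, and in the HuR WT group (3 arrays, genotype Thy1Cre-ERT2-EYFPHuRf/+) 1 allele was. Both groups carried the tamoxifen-inducible Cre with its yellow fluorescent reporter under the Thy1 promoter, which drives expression in neurons, both received tamoxifen at 10 and 11 weeks of age, and both were sampled at 91 days, with mice of either sex. HuR WT is therefore a heterozygous floxed, Cre-bearing and tamoxifen-treated control, and astrocytes are not the cells in which the Thy1 promoter is meant to delete HuR.

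Astrocytes take up the glutamate and potassium that neurons release, convert glutamate to glutamine, couple to each other through gap junctions and cover blood vessels with endfeet rich in water channels. After injury, inflammation or the loss of nearby neurons they become reactive, a state classically recognised by more glial fibrillary acidic protein and vimentin and by the induction of secreted and surface proteins such as Serpina3n and Cd44. Signalling through the transcription factor Stat3 is a well-known route into that state. In RNA of whole brain, fewer astrocytes and less RNA per astrocyte cannot be told apart.

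The level scale used throughout is log2(deposited intensity + 1) after quantile normalization, and a difference is HuR KO minus HuR WT on that scale. Array medians ran from 13.4 to 13.7 in HuR KO and from 13.4 to 14.6 in HuR WT as deposited intensity. The targeted gene Elavl1 averaged 8.22 ± 0.0458 in HuR KO and 8.27 ± 0.261 in HuR WT (SD, n = 3 each), a difference smaller than the spread of the HuR WT arrays. Before any result it must be said that the array numbered 3 of each group stood apart from the other 4: Xist, expressed from the inactive X chromosome of females, was at 7.68 on HuR KO 3 and 7.69 on HuR WT 3, against 2.52 to 2.79 elsewhere. Both of these arrays lay below the other 4 in 20.6% of the 16635 genes tested and above them in 23.4%. The values of the 10 genes and the medians of the gene lists are therefore also given without both arrays numbered 3. The number of arrays limits the precision: the half-width of the 95% confidence interval around a difference was 0.22 to 0.57 across the 10 astrocyte genes.

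The stretches just before the annotated starts of Gfap, Vim and Gja1 are shown because these genes, a filament gene known to rise in reactive astrocytes, its partner and the main astrocyte connexin, were low together on both arrays numbered 3, as described further on. Each stretch is the 250 bases upstream of the gene's start in the RefSeq annotation of GRCm38.p6, written 5′ to 3′ on the gene's own strand. Capitals mark a match, on either strand, to one of the motifs searched.
Gfap (chr11:102897201-102897450, minus strand): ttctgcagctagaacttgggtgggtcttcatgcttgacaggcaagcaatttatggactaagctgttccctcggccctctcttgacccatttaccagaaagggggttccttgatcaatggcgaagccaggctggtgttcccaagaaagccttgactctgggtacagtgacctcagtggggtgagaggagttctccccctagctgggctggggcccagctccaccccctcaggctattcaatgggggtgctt
Vim (chr2:13574061-13574310, plus strand): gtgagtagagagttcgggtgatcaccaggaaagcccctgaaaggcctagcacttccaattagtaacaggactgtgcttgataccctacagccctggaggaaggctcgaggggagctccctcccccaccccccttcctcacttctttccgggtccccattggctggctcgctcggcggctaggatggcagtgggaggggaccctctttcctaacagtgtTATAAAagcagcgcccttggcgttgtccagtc
Gja1 (chr10:56377050-56377299, plus strand): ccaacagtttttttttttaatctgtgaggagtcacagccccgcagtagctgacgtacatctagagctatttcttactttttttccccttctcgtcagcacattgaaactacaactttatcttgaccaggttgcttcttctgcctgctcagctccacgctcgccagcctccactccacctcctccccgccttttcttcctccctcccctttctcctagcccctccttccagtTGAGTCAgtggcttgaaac
The motifs were TTCNNNGAA for STAT factors, TGANTCA for AP-1 and TATAAA for the TATA box, and the palindromic site of nuclear factor I was searched too. In the Vim stretch the capitals are a TATA box, and in the Gja1 stretch an AP-1 motif; the Gfap stretch held none of the letters searched. No 2 of these matches overlapped. Over 32851 promoter stretches of the same length, 7.02% held the STAT motif, 6.75% the AP-1 motif, 12.4% the TATA box and 0.0365% the nuclear factor I motif. Promoter sequences matched 9 of the 10 genes, in 10 stretches since Aldoc has 2 annotated starts, and the more downstream stretch held 2 STAT matches. The other matched genes (Aldh1l1, S100b, Serpina3n, Cd44 and Glul) held no match to the letters searched, and a match or its lack is a description of these letters only.

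The astrocyte genes differed between HuR KO and HuR WT brain by amounts that did not pass the test. With limma and Benjamini-Hochberg adjustment over all 16635 genes, 0 of the 10 genes passed an adjusted p of 0.05, and 0 had an unadjusted p under that value. Over all genes 0% passed the adjusted threshold and 1.7% (282 genes) had an unadjusted p below it. Of the 10, 7 had values above 0 in HuR KO, where 54.8% of all genes did. Their median log2 fold change was 0.066, beside 0.013 over all genes tested, and single genes ran from -0.21 (Vim) to 0.15 (Gfap). The smallest adjusted p among them was 0.9998. That median was 0.081 without both arrays numbered 3, and it fell below 0 without HuR KO 2 (-0.02) or without HuR WT 3 (-0.0099). All 10 genes passed the filter on dim genes, although Cd44 lay close to it.

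**Figure D1:**
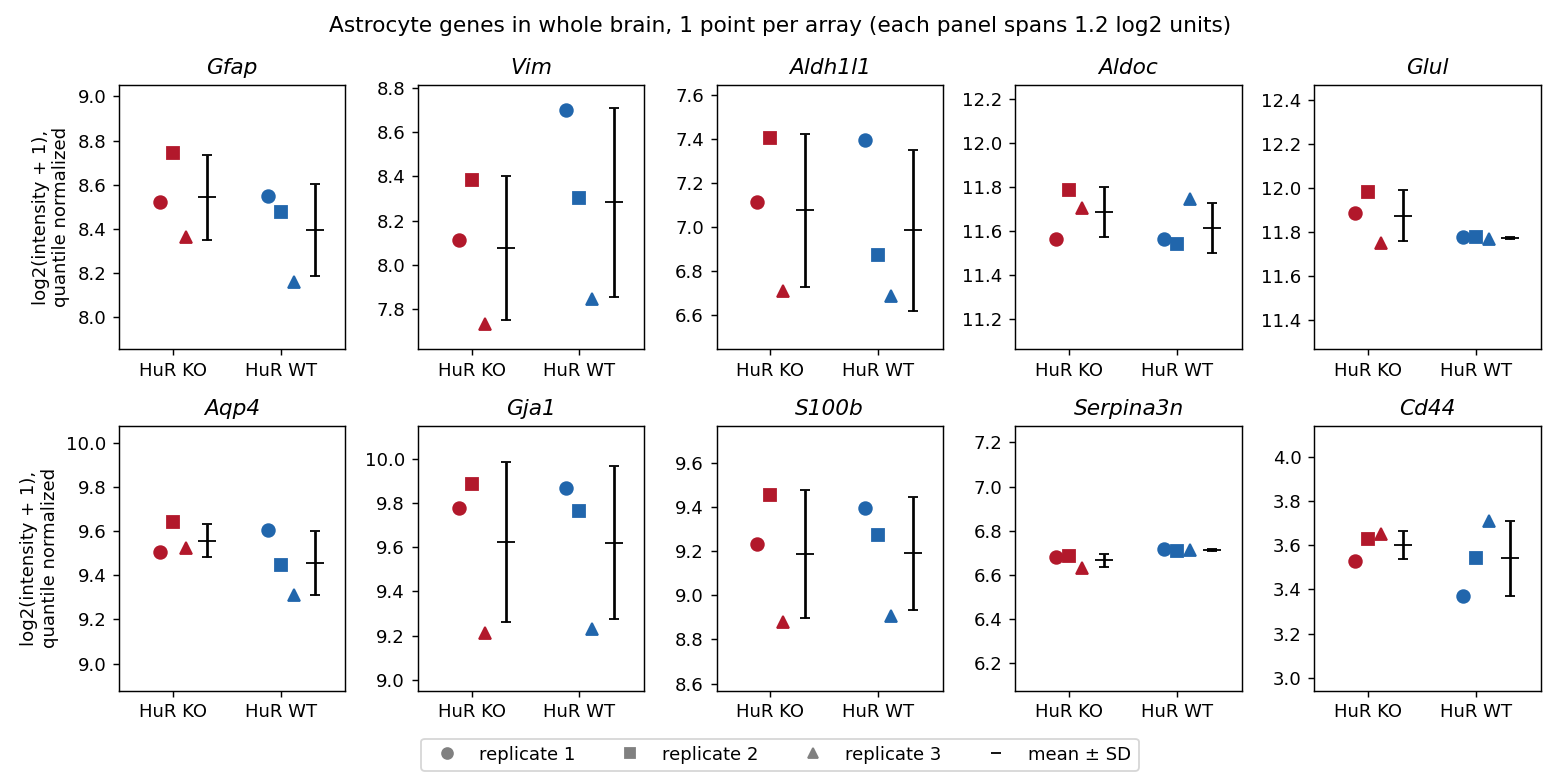
Levels of the 10 astrocyte genes, as log2(intensity + 1) after quantile normalization, with 1 point per array, HuR KO in red and HuR WT in blue, the marker shape giving the replicate number and the bar the mean ± SD over 3 arrays. Each panel spans the same number of log2 units, so that the tall spread of Vim, Aldh1l1, Gja1 and S100b, with triangles (replicate 3) at the bottom in both groups, can be set beside the flat Serpina3n.

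Gfap encodes glial fibrillary acidic protein, the main intermediate filament of astrocytes and the usual marker of their reactivity. Its level was 8.52, 8.75 and 8.36 on HuR KO arrays 1, 2 and 3, against 8.55, 8.48 and 8.16 on HuR WT arrays 1, 2 and 3. HuR KO 2 was the highest and HuR WT 3 the lowest, and the groups overlapped. The mean was 8.54 ± 0.193 in HuR KO and 8.39 ± 0.208 in HuR WT (SD, n = 3 each), and the log2 fold change was 0.15 with a standard error of 0.15. Its 95% confidence interval, from -0.21 to 0.50, corresponds to 0.866-fold to 1.42-fold, so that a doubling of Gfap RNA lies outside it. By replicate number the differences were -0.031, 0.27 and 0.20, and without both arrays numbered 3 the log2 fold change was 0.12. With 1 array left out it was 0.029 without HuR WT 3, 0.045 without HuR KO 2, 0.22 without HuR WT 1 and 0.24 without HuR KO 3.

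Vim encodes vimentin, which assembles with glial fibrillary acidic protein in reactive astrocytes and is also made by endothelial, meningeal and ependymal cells. Vim stood at 8.11, 8.38 and 7.73 on HuR KO arrays 1, 2 and 3, against 8.70, 8.30 and 7.84 on HuR WT arrays 1, 2 and 3. HuR WT 1 was well above all others and both arrays numbered 3 were the lowest, with overlap between the groups. At -0.21 with a standard error of 0.25 it had the lowest log2 fold change of the 10, and its 95% confidence interval of -0.78 to 0.37 was the widest. Single arrays moved that value: it was 0.0012 without HuR WT 1, -0.033 without HuR KO 3, -0.36 without HuR KO 2 and -0.43 without HuR WT 3. Without both arrays numbered 3 it was -0.25. A second, dimmer Vim probeset averaged 5.21 ± 0.0375 in HuR KO and 5.21 ± 0.231 in HuR WT (SD, n = 3 each), a difference of 0.0019. The filament genes Gfap and Vim thus had values on opposite sides of 0, neither past the test.

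Aldh1l1 encodes the folate enzyme 10-formyltetrahydrofolate dehydrogenase and marks astrocytes across brain regions. Its levels were 7.11, 7.40 and 6.71 on HuR KO arrays 1, 2 and 3, against 7.39, 6.87 and 6.69 on HuR WT arrays 1, 2 and 3. HuR KO 2 and HuR WT 1 formed the top and both arrays numbered 3 the bottom. The genotypes differed by 0.091 (SE 0.23), a value that changed sign without HuR KO 2 (-0.072) and without HuR WT 3 (-0.058). Without both arrays numbered 3 it was 0.12, and it reached 0.30 without HuR WT 1.

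Aldoc encodes aldolase C, the glycolytic aldolase of astrocytes and of Purkinje cells. It measured 11.56, 11.79 and 11.71 on HuR KO arrays 1, 2 and 3, against 11.56, 11.54 and 11.75 on HuR WT arrays 1, 2 and 3. Unlike Gfap or Vim it was not low on the arrays numbered 3, which lay below HuR KO 2 alone. Its log2 fold change was 0.07 with a standard error of 0.12 (0.11 without both arrays numbered 3). With 1 array left out it ran from 0.019 (without HuR KO 2) to 0.14 (without HuR KO 1), and values as deposited gave 0.046.

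Glul encodes glutamine synthetase, the enzyme with which astrocytes turn glutamate and ammonia into glutamine. Glul was at 11.89, 11.98 and 11.75 on HuR KO arrays 1, 2 and 3, against 11.78, 11.78 and 11.77 on HuR WT arrays 1, 2 and 3. HuR KO arrays 1 and 2 lay above all HuR WT arrays and HuR KO 3 below them. The log2 fold change was 0.10 with a standard error of 0.11, and 0.14 without both arrays numbered 3. It was 0.048 without HuR KO 2, 0.16 without HuR KO 3 and 0.063 with values as deposited. The near identity of the HuR WT arrays comes with the normalization, which gives the same value to genes of the same rank, and the deposited intensities differed more, at 3789, 4031 and 3290 in HuR KO and 3672, 3574 and 3361 in HuR WT. A second, dimmer Glul probeset averaged 4.92 ± 0.0806 in HuR KO and 4.70 ± 0.236 in HuR WT (SD, n = 3 each).

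Aqp4 encodes aquaporin-4, the water channel of astrocyte endfeet. Its level was 9.51, 9.64 and 9.52 on HuR KO arrays 1, 2 and 3, against 9.60, 9.45 and 9.31 on HuR WT arrays 1, 2 and 3. The HuR KO arrays lay within a narrow band that overlapped HuR WT 1. The log2 fold change was 0.10 with a standard error of 0.12 and a 95% confidence interval of -0.17 to 0.37. It was 0.05 without both arrays numbered 3 and 0.032 without HuR WT 3 alone, 0.06 without HuR KO 2 and 0.18 without HuR WT 1.

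Gja1 encodes the main gap junction protein of astrocytes. Gja1 measured 9.78, 9.89 and 9.21 on HuR KO arrays 1, 2 and 3, against 9.87, 9.77 and 9.23 on HuR WT arrays 1, 2 and 3. The arrays numbered 3 lay 0.61 below the other 4 on average, while the genotypes differed by 0.0036 with a standard error of 0.23. With the replicate number as a block the 95% confidence interval narrowed to -0.22 to 0.22. Without both arrays numbered 3 the difference was 0.015, and its sign turned without HuR KO 1 (-0.072), without HuR KO 2 (-0.13) or without HuR WT 3 (-0.19).

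S100b encodes a calcium-binding protein of astrocytes, made by some oligodendrocytes as well, which is also released and signals to other cells. Levels of S100b were 9.23, 9.46 and 8.88 on HuR KO arrays 1, 2 and 3, against 9.40, 9.27 and 8.90 on HuR WT arrays 1, 2 and 3. The order of the arrays was close to that of Gja1, with both arrays numbered 3 lowest. The mean was 9.19 ± 0.290 in HuR KO and 9.19 ± 0.256 in HuR WT (SD, n = 3 each), with a log2 fold change of -0.0015 whose sign turned when arrays were centred on their median (0.039), with values as deposited (0.0033) and without both arrays numbered 3 (0.00901). It also turned without HuR KO 3 (0.15), without HuR WT 1 (0.10) and without HuR WT 2 (0.039).

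Serpina3n encodes a secreted serine protease inhibitor that is among the genes most strongly induced in reactive mouse astrocytes. Its level was 6.68, 6.69 and 6.63 on HuR KO arrays 1, 2 and 3, against 6.72, 6.71 and 6.71 on HuR WT arrays 1, 2 and 3. Every HuR KO array lay below every HuR WT array, which made Serpina3n the 1 gene of the 10 whose groups did not overlap, where 5.7% of all genes had groups without overlap. The distance was small: the log2 fold change was -0.048 with a standard error of 0.095, and the 95% confidence interval of -0.27 to 0.17 corresponds to 0.83-fold to 1.13-fold. It was -0.032 without both arrays numbered 3. The separation also rests on the normalization. As deposited, the intensities were 100.9, 102 and 101.4 in HuR KO and 105.6, 97.2 and 105.7 in HuR WT, which overlap, and with arrays centred on their median the groups overlapped and the log2 fold change was 0.017. Other members of the Serpina3 cluster, which has near-identical copies, had no probeset with 1 symbol or were too dim to be tested, in 10 of 10 cases, so that reads of RNA from a neighbouring copy by the Serpina3n probeset were not tested.

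Cd44 encodes a surface receptor for hyaluronan that reactive and white matter astrocytes carry. Cd44 stood at 3.53, 3.63 and 3.65 on HuR KO arrays 1, 2 and 3, against 3.37, 3.54 and 3.71 on HuR WT arrays 1, 2 and 3. These values are dim, with deposited intensities of 9.35 to 12.1, below the median probeset of each array, and the filter on dim genes lay at 3.28. The log2 fold change of Cd44 was 0.063 with a standard error of 0.12, it was 0.12 without both arrays numbered 3 and it turned to -0.023 without HuR WT 1. It was 0.15 without HuR WT 3, 0.039 without HuR KO 3 and 0.021 with values as deposited. Whether the probeset detected Cd44 RNA at all was not tested.

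**Figure D2:**
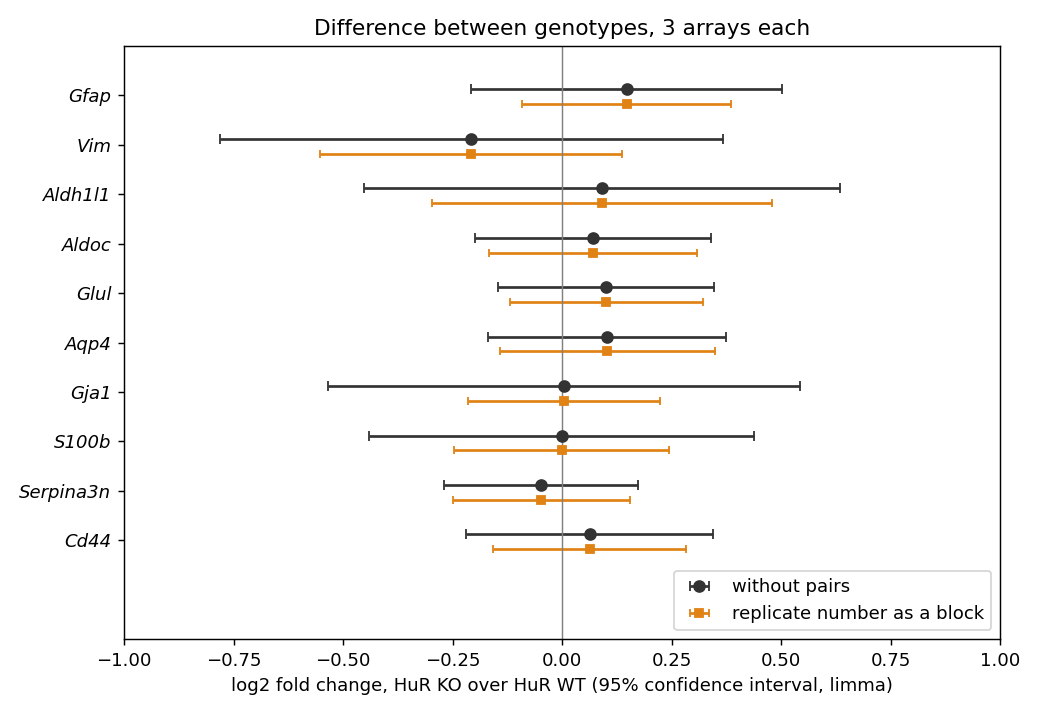
Log2 fold change of HuR KO over HuR WT for each of the 10 genes on the horizontal axis, with 95% confidence intervals from limma, without pairs (black circles) and with the replicate number as a block (orange squares). All intervals include 0, and the widest without pairs is that of Vim, from -0.78 to 0.37.

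Treating arrays of the same replicate number as pairs changed no call among the 10 genes. With this block 0 of them had an unadjusted p under 0.05, where 4.85% of all genes did (limma, smallest adjusted p among the 10 = 0.984, 0 genes past the adjusted threshold). Serpina3n was the 1 gene lower in HuR KO in all 3 same-numbered pairs, as were 10.7% of all genes, and 0 of the 10 were higher in all 3, as were 14.2% of all genes. For Serpina3n this rests on the normalization: as deposited, HuR KO 2 lay above HuR WT 2 (102 against 97.2). The upper bounds of the unpaired intervals ran no higher than 1.55-fold (Aldh1l1) and the lower bounds no lower than 0.582-fold (Vim).

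In 9 of the 10 genes the SD of at least 1 genotype was larger than the difference between genotypes, Serpina3n being the exception. HuR KO 2 gave the highest level of 7 genes (Gfap, Aqp4, Aldh1l1, Gja1, Aldoc, S100b and Glul), and HuR KO 3 or HuR WT 3 gave the lowest level of 8. In 6 genes (Gfap, Aldh1l1, Gja1, S100b, Vim and Glul) both arrays numbered 3 lay below all other 4, and in 1, Cd44, both lay above them. Over all genes tested these shares were 20.6% and 23.4%. The mean of the arrays numbered 3 minus that of the other 4 was -0.61 for Gja1, -0.59 for Vim, -0.50 for Aldh1l1, -0.45 for S100b and -0.31 for Gfap. It was near 0 for Serpina3n (-0.028) and above 0 for Aldoc (0.11) and Cd44 (0.16). The labels give no sex per sample, and these arrays were set apart from the data, so this is a description with no test.

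**Figure D3:**
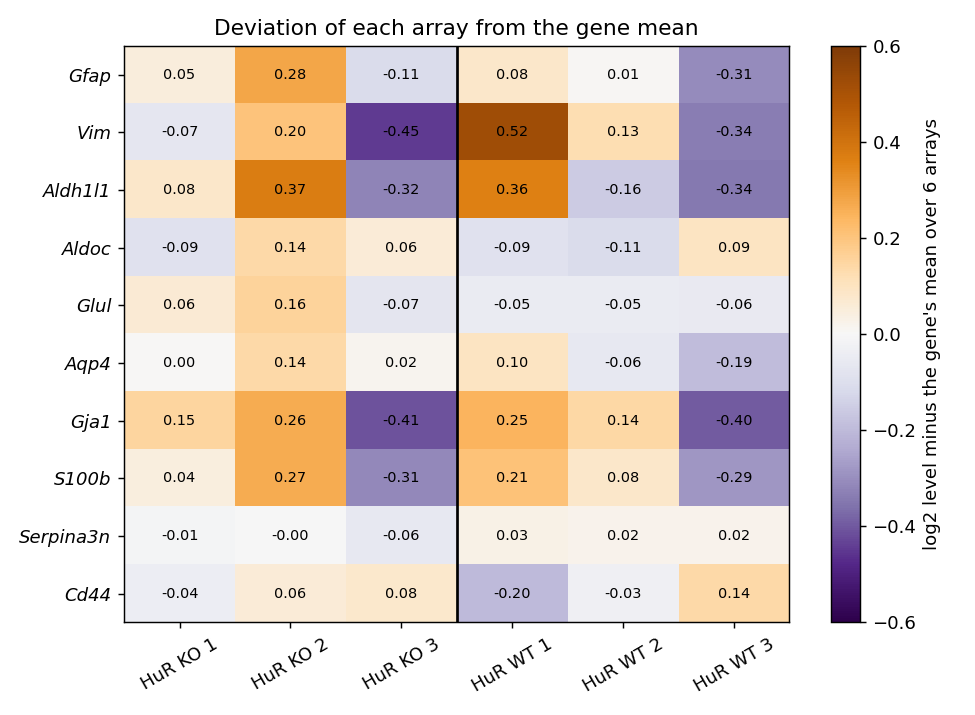
Level of each gene on each array minus the gene's mean over 6 arrays, in log2 units, with HuR KO arrays left of the line and HuR WT arrays right of it. Purple cells (below the gene's mean) gather in the columns of HuR KO 3 and HuR WT 3 for Gfap, Vim, Aldh1l1, Gja1 and S100b, and orange cells in the columns of HuR KO 2 and HuR WT 1.

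A wider list of astrocyte identity genes gave no call by genotype. Of 20 genes listed 19 were tested, 0 passed in either direction, 13 had values above 0, and the median log2 fold change was 0.025, from -0.085 to 0.18. Slc1a3, the glutamate transporter GLAST, averaged 9.95 ± 0.0575 in HuR KO and 9.88 ± 0.0115 in HuR WT (SD, n = 3 each). The smallest p values belonged to Gldc, of the glycine cleavage system, at a difference of 0.18 ± 0.16 (SE), to the thyroid hormone transporter Slco1c1 at 0.11 ± 0.11 and to the amino acid exchanger Slc7a10 at -0.085 ± 0.10. In 11 of the 19 both arrays numbered 3 lay below the other 4, and in 3 both lay above them. Over all genes tested these shares were 20.6% and 23.4%. Mean log2 levels over the list were 8.30, 8.35 and 8.08 on HuR KO arrays 1, 2 and 3, against 8.33, 8.22 and 8.09 on HuR WT arrays 1, 2 and 3. The list median without both arrays numbered 3 was 0.064.

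Genes known to be induced in reactive astrocytes did not pass either. Of 31 listed, 27 were tested, 0 passed, and 18 lay above 0, the median of the differences being 0.052. Lcn2, a secreted lipocalin induced in inflamed brain, was dim, at 3.87, 3.56 and 3.18 on HuR KO arrays 1, 2 and 3, against 3.59, 3.41 and 3.26 on HuR WT arrays 1, 2 and 3. Its groups overlapped and its highest value was on HuR KO 1. Ptgs2, the inducible cyclooxygenase that neurons also make, differed by 0.28 ± 0.16 (SE), the metalloreductase Steap4 by 0.17 ± 0.12 and the interferon-inducible GTPase Iigp1 by 0.24 ± 0.19. With the replicate block 2 of the 27 had an unadjusted p under 0.05, where 4.85% of all genes did, and 0 passed after adjustment. Without both arrays numbered 3 the list median was 0.02.

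Regulators of astrocyte reactivity gave 0 genes past the adjusted threshold. Of 18 tested among 20 listed, 9 lay above 0 and 9 below, with a median of 0.01. Stat3 was at 7.52, 7.49 and 7.78 on HuR KO arrays 1, 2 and 3, against 7.40, 7.40 and 7.68 on HuR WT arrays 1, 2 and 3. By replicate number HuR KO was above HuR WT by 0.12, 0.086 and 0.10, the groups overlapped, and the mean difference was 0.10 ± 0.13 (SE). Its feedback inhibitor Socs3 had a value of 0.12 ± 0.11. The groups did not overlap for 2 of the 18, where they did not for 5.7% of all genes. Tumour necrosis factor, Tnf, a microglial signal to astrocytes, measured 3.83, 3.79 and 3.92 on HuR KO arrays 1, 2 and 3, against 3.58, 3.72 and 3.58 on HuR WT arrays 1, 2 and 3, close to the dim limit. Hes5, a Notch target of glial progenitors and astrocytes, measured 5.96, 5.91 and 5.88 on HuR KO arrays 1, 2 and 3, against 5.76, 5.67 and 5.73 on HuR WT arrays 1, 2 and 3. Their log2 fold changes were 0.22 ± 0.10 and 0.20 ± 0.10 (SE), neither past the adjusted threshold. With both arrays numbered 3 left out they were 0.15 ± 0.11 and 0.22 ± 0.11 (SE), and the median of the regulators was 0.019.

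Partners of the 10 genes, taken by role, gave 0 genes past the adjusted threshold in each list. Among filament partners 5 of 6 listed were tested, with a median log2 fold change of -0.0028: Nes, which encodes nestin, was at 0.15 ± 0.19 (SE), Des, of muscle-type filaments, at 0.22 ± 0.16 and the linker Plec at -0.11 ± 0.20. In the S100 family with its receptor Ager 12 of 12 were tested, with a median of 0.077. S100a3 averaged 4.07 ± 0.0506 in HuR KO and 3.82 ± 0.0893 in HuR WT (SD, n = 3 each). It was the 1 gene of the 12 without overlap, where 5.7% of all genes had none. S100a9 of neutrophils was at a difference of 0.45 ± 0.28 (SE), and S100a14 at one of -0.22 ± 0.14. An unadjusted limma p under 0.05 was reached by 1 of the 12, and by 3 with the replicate block. Over all genes these shares were 1.7% and 4.85%. S100a1 was at 0.11 ± 0.33. The highest log2 fold change of the family, 0.73 ± 0.72 (SE), was that of S100a8, the partner of S100a9 in neutrophils, named after its values were seen. S100a8 measured 6.26, 4.72 and 3.02 on HuR KO arrays 1, 2 and 3, against 4.54, 3.75 and 3.51 on HuR WT arrays 1, 2 and 3. HuR KO 1 alone was far above the rest and HuR KO 3 was the lowest of all 6. Without both arrays numbered 3 the medians were 0.093 for the filament partners and 0.018 for the S100 family, S100a8 was at 1.33 ± 0.52 and S100a3 at 0.26 ± 0.11 (SE).

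The complex that anchors aquaporin-4 at the endfoot, with other endfoot genes, had 14 of 15 listed genes tested and a median log2 fold change of 0.0082. Dystrophin, Dmd, was at -0.061 ± 0.10 (SE), the potassium channel Kcnj10 at -0.094 ± 0.11, dystroglycan, Dag1, at 0.14 ± 0.19 and the calcium channel Trpv4 at 0.16 ± 0.16. Connexins and pannexins other than Gja1 had 11 of 12 tested, with a median of -0.0071. Gjb6, the other astrocyte connexin, measured 5.61, 5.76 and 4.68 on HuR KO arrays 1, 2 and 3, against 5.73, 5.46 and 4.77 on HuR WT arrays 1, 2 and 3. Like Gja1 it was lowest on both arrays numbered 3, while Gjc3, an oligodendrocyte connexin, was highest there, with a log2 fold change between genotypes of -0.25 ± 0.24 (SE). Panx2 had a value of 0.19 ± 0.17 and Gjc1 one of -0.15 ± 0.12. The medians without both arrays numbered 3 were 0.036 for the endfoot genes and 0.014 for the 10 connexins and pannexins then bright enough to be tested.

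Metabolic partners and those of Cd44 did not pass either. For glutamate and glutamine handling 9 of 13 listed were tested, from -0.02 to 0.069 with a median of 0.036, among them the glutamate transporter Slc1a2, or GLT-1, at 0.025 ± 0.10 (SE), glutamate dehydrogenase, Glud1, at 0.05 ± 0.15 and the glutamine carrier Slc38a5 at 0.036 ± 0.15. Glycolysis genes (12 of 16 tested) had a median of 0.06, with hexokinase 1, Hk1, at 0.075 ± 0.14, Pfkm at 0.13 ± 0.15, Tpi1 at 0.092 ± 0.11 and Pgam1 at -0.071 ± 0.11. Folate and one-carbon genes (10 of 12 tested) had a median of 0.058, with the mitochondrial relative of Aldh1l1, Aldh1l2, at -0.071 ± 0.20, Mthfd2 at 0.18 ± 0.12 and Amt at -0.074 ± 0.12. Hyaluronan synthases and other Cd44 partners (12 of 14 tested) had a median of 0.036, with Has1 at -0.16 ± 0.12, Has3 at -0.16 ± 0.14, Hapln1 at 0.18 ± 0.18 and the matrix protease Mmp9 at 0.22 ± 0.14. The medians without both arrays numbered 3 were 0.058 for glutamate handling, 0.09 for glycolysis, 0.051 for one-carbon genes and 0.024 for Cd44 partners.

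Markers of other brain cells varied between the same arrays, and their part in the astrocyte values was not tested. All 11 endothelial markers tested were higher on both arrays numbered 3 than on the other 4, with a median distance of 1.04, and Cldn5, of the tight junctions of brain vessels, measured 3.55, 4.13 and 5.62 on HuR KO arrays 1, 2 and 3, against 3.95, 4.07 and 5.14 on HuR WT arrays 1, 2 and 3. Of 14 neuron markers 11 were higher there, of 14 microglia markers 11 were lower and of 11 meningeal fibroblast markers 10 were lower. Over all genes tested 23.4% were higher on both and 20.6% lower. Sums over each list were taken after turning the normalized levels back to linear intensity. They ran from 635 to 1172 in HuR KO and 677 to 1121 in HuR WT for endothelial markers. For meningeal fibroblast markers they ran from 1019 to 1814 in HuR KO and 847 to 2009 in HuR WT. For neuron markers the sums were 15708 to 21211 in HuR KO and 14896 to 21237 in HuR WT, and for microglia markers 1221 to 1899 in HuR KO and 1274 to 1847 in HuR WT. None of the markers tested in the cell type lists was at 0, the lowest level being 3.20, in the ependymal list. The filter on dim genes (mean level below 3.28) had already left out dimmer ones, such as the endothelial marker Ly6c1. The lowest level therefore does not tell whether every marker was detected. Between genotypes 0 markers passed the adjusted threshold in any of these lists. Oligodendrocyte markers were the most one-sided, with 11 of 12 below 0 and a median log2 fold change of -0.16 (also -0.16 without both arrays numbered 3). Their groups did not overlap for 4 of the 12, where 5.7% of all genes had no overlap, and Mog, of the myelin surface, was at -0.19 ± 0.13 (SE). The mean level of this list was 8.52, 8.60 and 8.55 on HuR KO arrays 1, 2 and 3. On HuR WT arrays 1, 2 and 3 it was 8.91, 8.61 and 8.69, highest on HuR WT 1. By replicate number the median differences of the list were -0.33, 0.02 and -0.12. Its median without HuR WT 1 was not tested. Medians with and without both arrays numbered 3 were 0.19 and 0.073 for meningeal fibroblasts (8 of 11 above 0, although Dcn was at -0.095), -0.061 and 0.06 for ependyma (3 of 7 above 0, Foxj1 at 0.0092), and -0.0049 and -0.14 for endothelium (5 of 11 above 0, Cldn5 at 0.048). They were 0.045 and 0.071 for neurons (12 of 14 above 0, Rbfox3 at 0.0088), 0.0076 and 0.037 for microglia (7 of 14, P2ry12 at -0.21), 0.017 and 0.06 for pericytes and smooth muscle (6 of 10, Pdgfrb at 0.19) and 0.033 and 0.11 for choroid plexus (7 of 8, Ttr at 0.16).

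**Figure D4:**
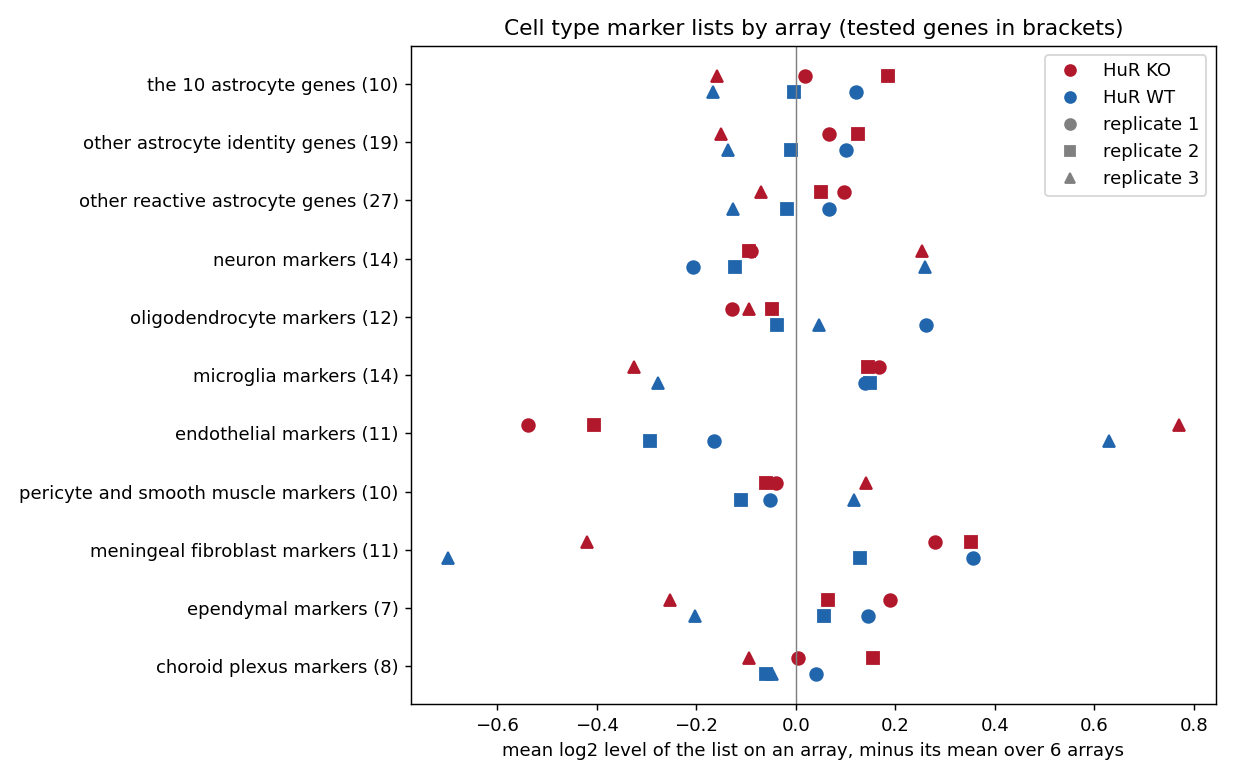
Mean log2 level of each list of cell type markers on each array, minus its mean over 6 arrays, with HuR KO in red above HuR WT in blue and the marker shape giving the replicate number; the number of tested genes is in brackets. Triangles (replicate 3) lie to the left for the astrocyte, microglia, meningeal and ependymal lists, in both genotypes. In both they lie to the right for neurons, for endothelium, and for pericytes and smooth muscle. For choroid plexus both triangles also lie left of 0, but HuR WT 2 lies further left than HuR WT 3.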

How the data were processed

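Total brain RNA of 6 samples was hybridised to 1 array each, after labelling of 150 ng with the Affymetrix WT Plus kit, per the labels' protocols. The authors deposited linear intensities of 41340 probesets, made with MAS5 per the submitters' processing notes; no source used here gives its version, background correction or scaling target. A background step can make dim genes noisier, which was not tested here, and log2(intensity + 1) understates their folds.

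Values were transformed as log2(intensity + 1) and quantile normalized, since array medians differed by 0.119 on the log2 scale. Of 23521 probesets with exactly 1 gene symbol (25335 were annotated, 1814 with several symbols), the one with the highest mean stood for each of 22180 genes. Genes whose mean level lay below percentile 25 (3.28), 5545 in number, were not tested, and 16635 were. HuR KO and HuR WT were compared by the two-sided test of limma 3.58.1 (lmFit and eBayes, R 4.3.3), and p values were adjusted by Benjamini-Hochberg with a threshold of 0.05. The procedure was tested on simulated data with independent noise and no arrays set apart like those numbered 3. That run cannot tell how small a difference would be found in these data. Plots used matplotlib 3.10.9 in Python 3.11.15. Promoter sequences are from RefSeq, build GRCm38.p6. The table has 0 columns of samples that were not used.

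The 10 genes and all lists were chosen with earlier results of these data known. The text names, beside the 10, the first tested gene of each list described and up to 3 with the smallest p, the first gene only for cell type lists, and Elavl1 and Xist. Also examined were neural stem and Bergmann glia genes (8 of 9 tested, 6 above 0) and the ELAV family (4 of 4 tested, 1 above 0). Both gave 0 genes past the adjusted threshold. Their median log2 fold changes were 0.10 and -0.023, and 0.087 and 0.027 without both arrays numbered 3. The labels do not say that samples are separate animals, and p values then reflect only how these samples scatter, which may be technical. Same replicate numbers were checked for pairing. Deviations from group means correlated at 0.31, 0.37 and 0.75 for numbers 1, 2 and 3, all above 0.1. A pairing was accepted on this check alone. The crossed arrays correlated too, HuR KO 2 with HuR WT 1 at 0.40 and HuR KO 1 with HuR WT 2 at 0.37. The check therefore cannot tell this pairing from one with numbers 1 and 2 exchanged. Values by replicate number and with the replicate block depend on that choice. The reported comparison is without pairs. Alternatives covered normalization, filter, pseudocount, probeset rule, variance prior, pairs and arrays left out.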

Additional observations from a re-analysis of the deposited data

How the results depend on the processing

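No astrocyte gene passed the adjusted threshold under any of the 15 alternatives, and over all genes 0 passed in each. At an unadjusted p under 0.05 the count over all genes was 282 as reported, 806 with the replicate block, 851 without both arrays numbered 3, 576 without HuR WT 3, 464 without HuR KO 3 and 465 without the filter on dim genes. It was 165 without HuR KO 2, 188 without HuR KO 1 and 88 in the upper 50% of genes, where Cd44 is not among those tested. The replicate block left all log2 fold changes as they were, with a median of 0.066 over the 10 genes, and changed no call. That median was 0.069 with arrays centred on their median (0.055 over all genes), 0.034 with values as deposited and 0.048 with a pseudocount of 16, and -0.02 to 0.14 with 1 array left out. Of 149 single-gene values under alternatives, 14 turned in sign. S100b turned to 0.039 with median centring, 0.0033 as deposited and 0.00901 without both arrays numbered 3, and Serpina3n to 0.017 with median centring. With 1 array left out the values ran from -0.072 to 0.30 for Aldh1l1, -0.19 to 0.21 for Gja1, -0.15 to 0.15 for S100b, -0.43 to 0.0012 for Vim and -0.023 to 0.15 for Cd44. The other 5 kept their sign, from 0.029 to 0.24 for Gfap, 0.032 to 0.18 for Aqp4, 0.019 to 0.14 for Aldoc, 0.048 to 0.16 for Glul and -0.059 to -0.03 for Serpina3n. Leaving out both arrays numbered 3 for the gene lists was chosen after seeing the data. The cause of these turns was not tested. No detection calls were used, so at the brightness of Cd44, Lcn2 and Tnf a fold is the least certain.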
